A study of Mus musculus with 2 samples.

Results

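The acetyltransferase coactivators write lysine acetylation on chromatin, and BET proteins read it. The genes examined were Brd2, Brd3 and Brdt, which encode BET proteins, and Crebbp, Ep300, Kat2a and Kat2b, which encode acetyltransferases. They were found by their Ensembl gene identifiers, and all 7 were present among 43346 gene rows in each library. The rule that chose them uses no measured value.

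G1E-ER4 is a mouse erythroid line that lacks a working Gata1 gene of its own. It carries GATA1 joined to the ligand-binding domain of an estrogen receptor, so that estradiol turns the factor on. The labels call it an immortalized male cell line. PolyA RNA was sequenced in paired ends, and the data hold 2 libraries of 1 group, cells given 10 nM 17beta-estradiol for 7 hours. The labels number the libraries as biological replicates 1 and 2 but cite 1 biological sample record for both, so their spread may be technical. No untreated cells were part of the data, so no change with estradiol was measured.

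BET proteins carry a pair of bromodomains that dock on acetylated lysines of histones and of some transcription factors. In erythroid cells BRD3 and BRD2 bind acetylated GATA1, and BRDT is the member made in male germ cells. CBP, the product of Crebbp, and its close relative p300 acetylate histones H3 and H4 as well as GATA1 itself. GCN5, the product of Kat2a, and PCAF, the product of Kat2b, are alternative catalytic subunits of the SAGA and ATAC complexes.

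Transcript models of Brd2 and Kat2a differed by short stretches, which are shown because the transcript shares given later turn on them. The Kat2a models Kat2a-202 and Kat2a-201 each had 18 exons and differed by 3 bases at the junction of exons 8 and 9, at chr11:100708983-100708985 on the minus strand of GRCm38. The capitals mark these bases, and the letters come from the GENCODE M21 transcripts, with 10 bases of each flank in lower case.
Kat2a-202: cccatgccagCAGgggagaagag
Kat2a-201: cccatgccaggggagaagag

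The Brd2 model Brd2-207, annotated as a target of nonsense-mediated decay, held an extra exon 4 of 92 bases at chr17:34116598-34116689 on the minus strand. These bases were in none of the other Brd2 models. The annotated reading frame passes through the exon and ends at a stop codon 16 bases into exon 5 of 14. The capitals mark the extra exon, again from GENCODE M21.
Brd2-207: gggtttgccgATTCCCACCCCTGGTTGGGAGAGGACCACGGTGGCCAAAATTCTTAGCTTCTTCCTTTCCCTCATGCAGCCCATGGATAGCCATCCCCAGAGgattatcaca

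Promoter windows of RefSeq on GRCm38.p6, from 250 bases before a start to 50 after it, were matched for 7 of the 7 genes in 10 windows. Brd2 had 3 windows and Kat2b 2, and each other gene had 1. The window at the start of the leading transcript is shown for the most abundant gene, Brd2, and for the paralogs Kat2a and Kat2b, beside the window of the lowest gene, Brdt, and capitals mark matches to short motifs on either strand. The motifs were a GATA motif (GATA after an A or a T and before an A or a G), a CACCC box (CCACACCC or CCACGCCC), a TATA box (TATAAA) and a CCAAT box (CCAAT). No motif is contained in another, and the list was settled after the windows had been looked at.
Brd2, chr17:34122558-34122857, minus strand: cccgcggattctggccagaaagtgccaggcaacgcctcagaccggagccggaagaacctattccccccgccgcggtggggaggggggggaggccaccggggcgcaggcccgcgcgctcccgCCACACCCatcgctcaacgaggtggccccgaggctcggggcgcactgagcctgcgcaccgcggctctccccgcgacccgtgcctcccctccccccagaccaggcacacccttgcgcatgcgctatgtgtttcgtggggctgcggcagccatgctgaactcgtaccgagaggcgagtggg
Kat2a, chr11:100712418-100712717, minus strand: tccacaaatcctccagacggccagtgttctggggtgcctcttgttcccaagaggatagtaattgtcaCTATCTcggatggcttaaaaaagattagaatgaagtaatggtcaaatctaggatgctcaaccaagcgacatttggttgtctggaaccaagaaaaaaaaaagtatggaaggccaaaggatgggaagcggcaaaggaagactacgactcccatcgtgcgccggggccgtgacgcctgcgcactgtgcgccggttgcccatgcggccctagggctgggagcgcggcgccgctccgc
Kat2b, chr17:53566721-53567020, plus strand: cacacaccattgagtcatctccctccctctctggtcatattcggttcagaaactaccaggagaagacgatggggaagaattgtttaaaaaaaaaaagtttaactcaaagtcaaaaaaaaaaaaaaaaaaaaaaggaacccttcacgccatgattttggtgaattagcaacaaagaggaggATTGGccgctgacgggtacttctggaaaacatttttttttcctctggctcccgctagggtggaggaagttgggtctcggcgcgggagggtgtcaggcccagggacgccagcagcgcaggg
Brdt, chr5:107330944-107331243, plus strand: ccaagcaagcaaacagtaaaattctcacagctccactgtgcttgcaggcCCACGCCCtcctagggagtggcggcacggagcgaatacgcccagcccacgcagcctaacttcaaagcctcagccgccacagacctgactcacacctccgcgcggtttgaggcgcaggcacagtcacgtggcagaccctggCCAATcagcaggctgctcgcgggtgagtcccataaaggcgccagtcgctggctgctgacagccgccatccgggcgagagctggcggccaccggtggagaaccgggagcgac

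The Brd2 window shown held 32 CpG and 1 CACCC box, and its GC content was 72.3%. The coding model Brd2-201 starts at base 258 of this window and the short noncoding model Brd2-212 at base 224. Of the Brd2 windows not shown, chr17:34121698-34121997 held 14 CpG and none of the motifs, and chr17:34119851-34120150 held 24 CpG and 1 GATA motif. The Kat2a window held 19 CpG and 1 GATA motif, and both Kat2a-201 and Kat2a-202 start at its base 253. The Kat2b window shown held 11 CpG and 1 CCAAT box, and the other one, chr17:53583876-53584175, held 6 CpG and 2 GATA motifs. The Brdt window held 23 CpG, 1 CACCC box and 1 CCAAT box. Across 32851 promoter windows of the same length the median was 7.00 CpG. A GATA motif was in 29.8% of those windows, a CACCC box in 8.58%, a TATA box in 13.6% and a CCAAT box in 37.4%. Brd3, Crebbp and Ep300 had windows with 46, 49 and 30 CpG and no match to these motifs. A match describes letters only, and no binding was measured.

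The libraries held 59610969 expected counts (replicate 1) and 44689405 (replicate 2). The 7 genes took 82347 counts in replicate 1, which is 0.138% of the library, and 65000 counts in replicate 2, which is 0.145%. Levels are given as TPM, transcripts scaled for their length to a fixed library total, and a gene counted as detected where both libraries reached a TPM of 1. Erythroid markers were high, with 7 of 7 detected. Their summed TPM was 9898 in replicate 1 and 6560 in replicate 2, with Hba-a1, which encodes alpha-globin, at a mean TPM of 4967. All 5 germ cell markers (Ddx4, Dazl, Sycp3, Tnp1 and Prm1) had 0 counts in both libraries. None of 3 macrophage and neutrophil or 3 endothelial and stromal markers reached a TPM of 1 in either library, and Pecam1 and Cdh5 had 0 counts. Of lymphoid markers, Cd3e had 0 counts and Cd79a stood at a mean TPM of 0.245. The neutrophil granule genes Elane and Mpo had 1 and 0 counts in replicate 1 and 10 and 24 counts in replicate 2, and their part in differences between the libraries was not tested. Of 3 megakaryocyte markers, Gp1ba and Itga2b reached the limit, at a mean TPM of 52.6 and 4.67, and Pf4 stood at 0.440.

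The line expressed 6 of the 7 genes, at levels that spanned from a mean TPM of 307 for Brd2 to 4.61 for Kat2b. Brdt, at a mean TPM of 0.0300, was far below the limit of 1. By the same limit 38.3% of all 21474 protein-coding genes were detected. The order by mean TPM was Brd2, Brd3, Kat2a, Ep300, Crebbp, Kat2b and Brdt. The ranges of neighbours in this order did not overlap over the 2 libraries. The summed TPM of the 7 genes was 487 in replicate 1 and 590.3 in replicate 2, of which Brd2 made up 54.9% and 58.8%.

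**Figure D1:**
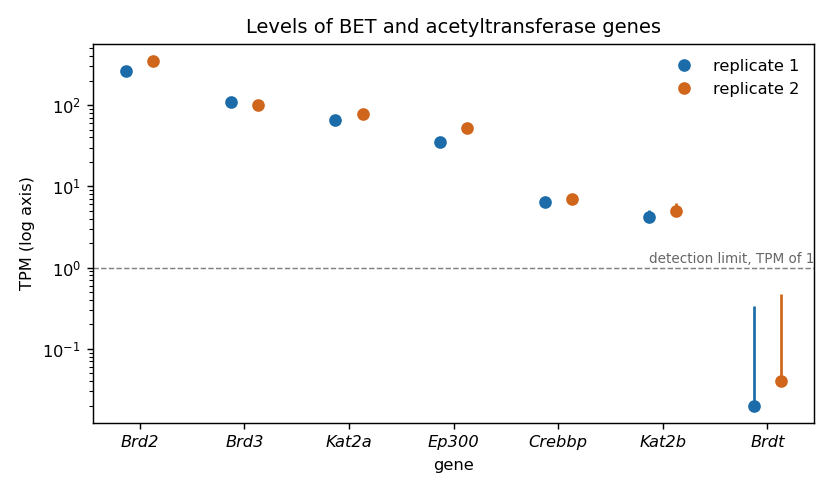
TPM of each gene on a log axis, with a point for each library and a line for the authors' interval of TPM; the dashed line marks a TPM of 1. The Brd2 points lie at 267 and 347 and the Kat2b points at 4.24 and 4.98, and only the Brdt points, at 0.0200 and 0.0400, fall under the dashed line.

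Brd2 encodes a broadly made BET protein that recruits transcription regulators to acetylated chromatin. The gene (ENSMUSG00000024335.15, chr17:34112023-34122634, minus strand) had a TPM of 267 in replicate 1 and 347 in replicate 2, with a mean of 307 ± 56.3 (SD, n = 2). It ranked 460 among 21474 protein-coding genes by mean TPM. The authors' intervals of its TPM, 258 to 269 in replicate 1 and 332 to 348 in replicate 2, did not overlap.

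Brd3, whose product binds acetylated GATA1 at erythroid genes, had a TPM of 109 in replicate 1 and 100.05 in replicate 2 (ENSMUSG00000026918.12, chr2:27445579-27507662, minus strand). Its mean was 104 ± 6.02 (SD, n = 2), at rank 1363. The authors' intervals, 105 to 109.9 and 87.6 to 111, overlapped.

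Brdt, the germ cell member, had 3 counts in replicate 1 (95% exact Poisson interval 0.619 to 8.77) and 7 in replicate 2 (2.81 to 14.4). Its TPM was 0.0200 and 0.0400 (ENSMUSG00000029279.11, chr5:107331159-107387058, plus strand). The Poisson intervals cover counting error only. The posterior mean TPM that the authors gave beside it was 0.14 and 0.22. Both estimates lay below a TPM of 1 in both libraries. In bulk RNA, few cells with a transcript and little of it per cell cannot be told apart.

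Among Crebbp, Ep300, Kat2a and Kat2b, Kat2a was the most abundant. Kat2a, which encodes GCN5, had a TPM of 65.0 in replicate 1 and 78.4 in replicate 2, with a mean of 71.7 ± 9.50 (SD, n = 2; ENSMUSG00000020918.10, chr11:100704746-100712465, minus strand). Kat2b, which encodes PCAF, had a TPM of 4.24 and 4.98, a mean of 4.61 ± 0.523 (SD, n = 2; ENSMUSG00000000708.10, chr17:53566861-53672720, plus strand). The authors' intervals did not overlap between the libraries for Kat2a (62.7 to 65.2 and 75.1 to 78.5) and overlapped for Kat2b (4.20 to 5.18 and 4.92 to 6.17). Kat2a was 15.3 times as abundant as Kat2b in replicate 1 and 15.7 times in replicate 2, a log2 ratio of 3.96 ± 0.0276 (SD, n = 2).

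Ep300, which encodes p300, had a TPM of 35.3 in replicate 1 and 53.1 in replicate 2, with a mean of 44.2 ± 12.6 (SD, n = 2; ENSMUSG00000055024.8, chr15:81585351-81652077, plus strand). Crebbp, which encodes CBP, had a TPM of 6.51 and 6.93, a mean of 6.72 ± 0.297 (SD, n = 2; ENSMUSG00000022521.9, chr16:4081328-4213997, minus strand). The authors' intervals did not overlap between the libraries for Ep300 (34.2 to 35.6 and 51.1 to 53.3) and overlapped for Crebbp (6.20 to 6.63 and 6.54 to 7.07). Ep300 was 5.43 times as abundant as Crebbp in replicate 1 and 7.67 times in replicate 2, and the log2 ratio of Crebbp over Ep300 was -2.69 ± 0.352 (SD, n = 2). In counts, which do not allow for length, Ep300 had 12263 and 11871 and Crebbp 3319 and 2471.

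Within the BET pair, Brd2 was 2.46 times as abundant as Brd3 in replicate 1 and 3.47 times in replicate 2, a log2 ratio of 1.55 ± 0.350 (SD, n = 2). These 3 paralog ratios kept their sign in each library. The size of the Brd2 and Brd3 ratio and of the Crebbp and Ep300 ratio depended on which transcripts of a gene were counted, as described next.

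Nearly all of the TPM of Crebbp, Kat2b and Kat2a came from coding models, whereas Brd2 and Ep300 gave a large share of their TPM to models of other types. The share of a gene's TPM is the authors' percent per transcript, and the same share was also computed from expected counts, which do not divide by length.

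**Figure D2:**
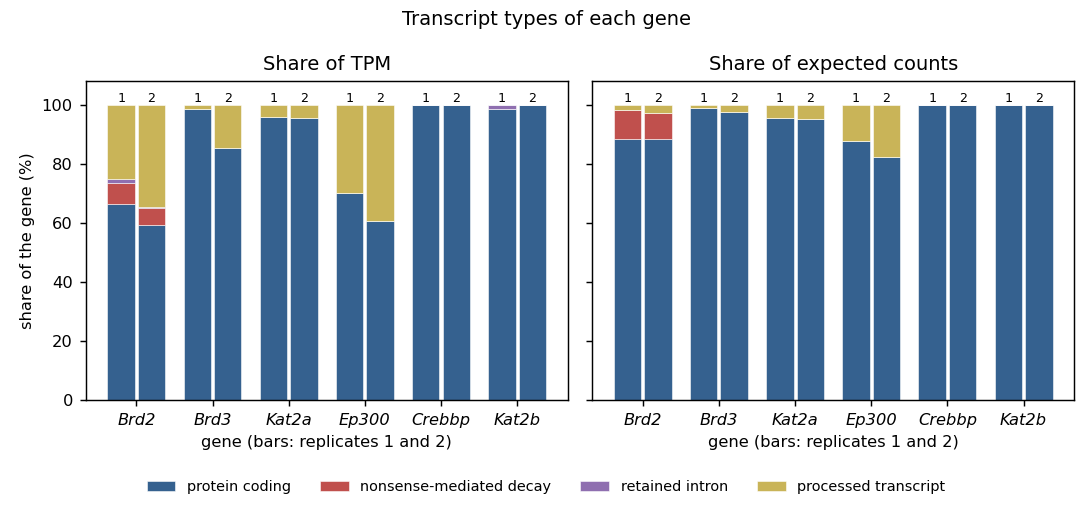
Share of each gene's TPM (left) and of its expected counts (right) by annotated transcript type, in percent, with a bar for each library. Coding transcripts made up 66.3% and 59.4% of the TPM of Brd2 but 88.4% and 88.5% of its counts.

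Brd2 had 13 models, 11 of them with any count. The leading one was Brd2-201, the coding mRNA, with 64.6% of the TPM in replicate 1 and 57.3% in replicate 2, and 86.1% and 85.3% of the counts. The second was Brd2-212, a processed transcript of 366 bases from the promoter, with 24.6% and 34.2% of the TPM but 1.63% and 2.67% of the counts. Its TPM of 65.6 and 119 rested on 699 and 931 counts over an effective length of 210 and 222 bases. In GENCODE M21, 332 of its 366 bases also lie in Brd2-201 and 15 lie in no other model. By that annotation, reads from both 5′ ends cannot be fully told apart. The deposited Brd2-201 had 4374 bases, against 4657 in M21, so the overlap of the models that were counted may differ. Brd2-207, with the extra exon shown above, took 7.06% and 5.68% of the TPM and 4170 and 3044 counts. Only its 92 extra bases were in no other model. The coding models alone gave Brd2 a mean TPM of 192.

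Brd3 had 10 models, several of which end at different places. Brd3-206, a coding model of 2221 bases whose 3′ end the annotation marks as not found, took 67.2% of the TPM in replicate 1 and 61.2% in replicate 2. Brd3-210, which ends at 27447843, took 15.0% and 8.13%. The 3 models with the longest 3′ ends, Brd3-201, Brd3-202 and Brd3-203, took 12.0% and 7.90% of the TPM and 25.3% and 20.7% of the counts. Every base of Brd3-206 and of Brd3-210 was also in another Brd3 model. Brd3-204, a processed transcript of 331 bases, took 0.300% in replicate 1 and 13.4% in replicate 2, from 2.85 and 88.7 counts, and the authors' interval of its TPM in replicate 2 ran from 1.36 to 25.3. Coding models together made up 98.7% and 85.4% of the TPM of Brd3, and 98.9% and 97.4% of its counts.

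Ep300 had a coding model, Ep300-201, with 69.9% of the TPM in replicate 1 and 60.5% in replicate 2. Nearly all of the rest went to Ep300-202, a processed transcript of 1 exon at the 5′ end (chr15:81585351-81588347), with 29.9% and 39.5%. Of its 2997 bases in GENCODE M21, 1671 lie in no other model. The deposited Ep300-201 had 8738 bases, against 9566 in M21, so the overlap of the models that were counted may differ. It took 1520 counts in replicate 1 and 2112 in replicate 2, which is 12.4% and 17.8% of the gene's counts. The TPM of Ep300-202 was 10.6 and 21.0, against 24.7 and 32.1 for the coding models. With coding models only, Ep300 was 3.81 and 4.64 times as abundant as Crebbp.

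Kat2a was split between its pair of coding models, Kat2a-201 with 78.8% and 80.0% of the TPM and Kat2a-202 with 17.1% and 15.5%. The mean share of Kat2a-202 was 16.3% ± 1.10 (SD, n = 2), from 1624 and 1248 counts. The 3 bases in capitals above are the only ones that Kat2a-201 lacks, and the processed transcript Kat2a-203 has them too. The authors' intervals of the TPM of Kat2a-202 were 8.33 to 13.7 in replicate 1 and 7.45 to 15.7 in replicate 2. For Crebbp, Crebbp-201 took 99.8% of the TPM in replicate 1 and all of it in replicate 2, and for Kat2b, Kat2b-201 took 98.4% and all of it. Brdt had 4 models, and its shares rested on the 3 and 7 counts given above.

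**Figure D3:**
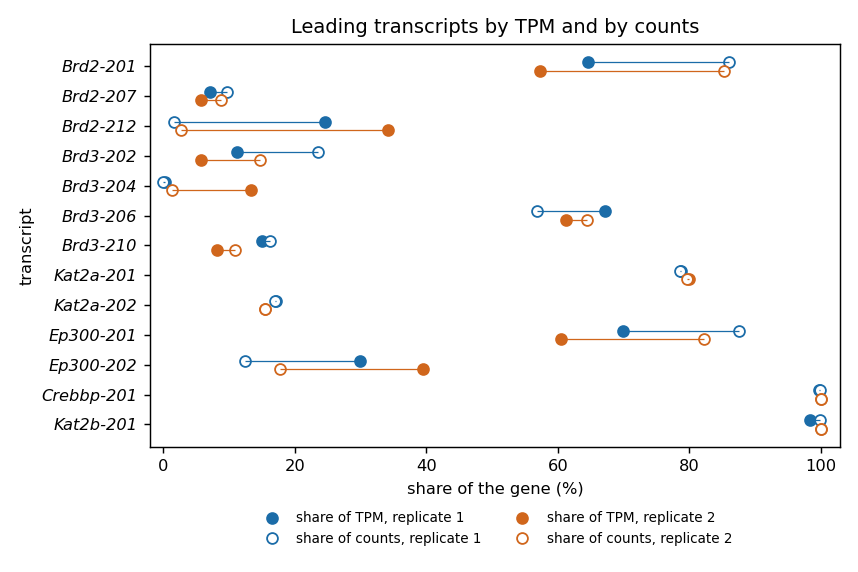
Share of its gene for each transcript with at least 10% of the TPM in either library, and for Brd2-207, by TPM (filled) and by expected counts (open), in percent. Brd2-212 lies at 24.6% and 34.2% by TPM and at 1.63% and 2.67% by counts, while the filled and open points of Kat2a-201 and Kat2a-202 nearly coincide.

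With coding models only, the order of the genes was unchanged, at mean TPM of 192 for Brd2, 96.3 for Brd3, 68.6 for Kat2a, 28.4 for Ep300, 6.71 for Crebbp and 4.58 for Kat2b. The place of Brd3 rests largely on Brd3-206, a coding model of 2221 bases without a found 3′ end. Brd3-202, with a longer 3′ end, has 5272 bases, and what this length does to the order was not tested. By counts, which do not divide by length, Ep300 stood between Brd2 and Brd3. The gene-level counts of 7 of the 7 genes were whole in both libraries (tolerance 0.005), and the authors' posterior SD of those counts was 0.

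The libraries were next set against each other, to see how far the levels repeated. An exact two-sided binomial test with Benjamini-Hochberg adjustment was applied to all 11285 genes with at least 10 counts. It sets the libraries, and no conditions, against each other, and counting noise is the sole error it allows for. A gene was called different where the adjusted p was under 0.05 and the fold 2 or more. None of the 7 genes was called, that is 0 of 7, against 11.2% of all genes tested and 2.80% called higher in replicate 2. With a fold of at least 1.5 it was again 0 of 7, against 27.7% of all genes. Ep300 lay just under this limit, at a log2 ratio of 0.58 by scaled counts, replicate 2 over replicate 1. Brdt, at 1.72, passed both fold limits but not the limit of adjusted p, on 3 and 7 counts. Without a fold limit, 6 of the 7 genes had an adjusted p under 0.05, as did 68.0% of all genes tested, and the same 6 had an unadjusted p under 0.05.

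With TMM, edgeR's trimmed-mean scaling, Ep300 differed most among the 6 detected genes, with 12263 and 11871 counts and a log2 ratio of scaled counts, replicate 2 over replicate 1, of 0.58 (exact binomial test, adjusted p = 1.22e-209). Kat2a stood at 0.38, Kat2b at 0.36, Brd2 at 0.33 and Crebbp at 0.20, all higher in replicate 2, and Brd3 at -0.32, lower in replicate 2. Brd2 had 42860 counts in replicate 1 and 34831 in replicate 2, Brd3 13420 and 6968, Kat2a 9530 and 8058, and Kat2b 952 and 794. The adjusted p of these 5 genes in the exact binomial test ran from 7.24e-212 for Brd2 to 5.04e-07 for Crebbp, values that reflect counting noise alone. Brdt stood at 1.72, with an adjusted p of 0.0807 in the exact binomial test. The median size of the log2 ratio was 0.34 over these 6 genes and 0.33 over 8219 detected protein-coding genes. Scaling by total counts in place of TMM shifted the log2 ratios by -0.21 and left Crebbp at -0.01. Under that scaling Brd3, at -0.53, differed most, and Ep300 stood at 0.37.

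**Figure D4:**
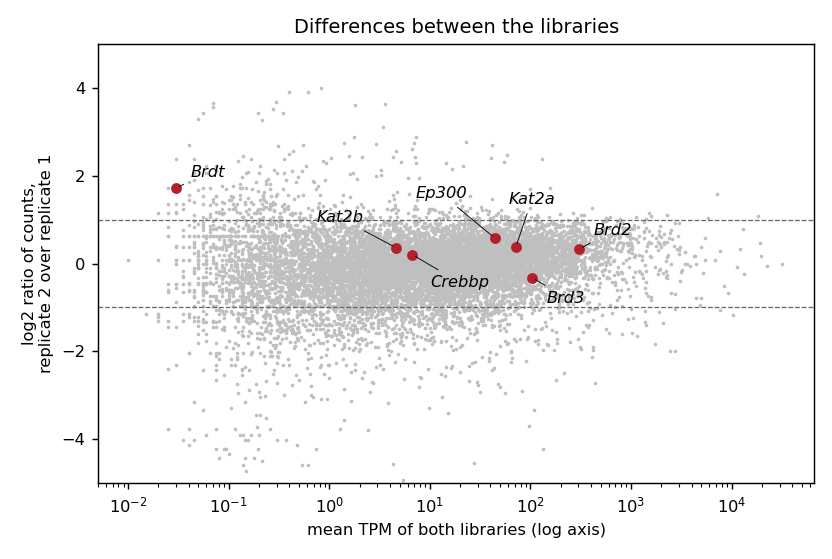
Log2 ratio of scaled counts of replicate 2 over replicate 1 against mean TPM (log axis), with a grey point for each gene with at least 10 counts, except 2 at a mean TPM of 0 that a log axis cannot show, and red points for the 7 genes; 30 of 11283 genes lie outside the vertical range of 5 either way. The 6 detected genes lie between the dashed lines that mark a fold of 2, and Brdt lies above them.

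The SD over the libraries was 28.4% of the mean TPM for Ep300, 18.4% for Brd2, 13.3% for Kat2a, 11.4% for Kat2b, 5.77% for Brd3 and 4.42% for Crebbp. The median over detected protein-coding genes was 17.6%. Ep300 and Brd2 were above that median and the other 4 below it. The value of Brd3 depended on the short model Brd3-204, since its coding models alone stood at a TPM of 107 in replicate 1 and 85.5 in replicate 2, or 96.3 ± 15.4 (SD, n = 2).

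Genes whose products act beside these proteins were nearly all expressed. Of 113 such genes on 6 lists, 110 were detected, which is 97.3%, against 38.3% of all protein-coding genes. The median TPM was 27.1 over the 113, against 0.0300 over all protein-coding genes and 20.8 over the detected ones. The lists were drawn up with earlier results of these data known, so these values describe the lists and test nothing. Counting all transcripts of each gene, Brd2 exceeded all but 6 of the 113, Brd3 all but 18, Kat2a all but 26 and Ep300 all but 40. Crebbp was exceeded by 87 of them and Kat2b by 93. Between the libraries, 8 of 110 tested genes on the lists were called different, which is 7.27%, against 11.2% of all genes tested. The calls of single lists given below rest on few genes and are to be read against that share.

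The SAGA and ATAC list, the complexes that hold GCN5 or PCAF, had 23 of 23 subunits detected, with a median of 13.3. The most abundant were Taf10, shared with TFIID, at 546 ± 99.5, Wdr5 at 123 ± 5.33 and Atxn7l3, of the deubiquitinase module, at 79.4 ± 4.19 (SD, n = 2). The adaptor Tada2a, of ATAC, stood at 1.29 ± 0.0849 and its SAGA counterpart Tada2b at 25.3 ± 6.16. Taf9, Taf12 and Eny2 were called lower in replicate 2, by a log2 ratio of -1.10, -1.07 and -2.25, that is 3 of 23 called, against 11.2% of all genes tested.

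Other acetyltransferases were detected for 13 of 13, with a median of 12.5. The leading genes were Naa10 (165 ± 59.2) and Naa50 (58.5 ± 17.0), which acetylate protein N termini, and Kat7 (36.5 ± 8.20), the catalytic subunit of HBO1 complexes. Kat2a exceeded Kat7 in both libraries. Ep300 also exceeded Kat7 within each library, at 35.3 against 30.7 in replicate 1 and 53.1 against 42.3 in replicate 2. Their ranges over the libraries overlapped. Coding models of Kat7 were not summed, so the 28.4 of the Ep300 coding models has no like value here. Between the libraries 0 of 13 were called different, against 11.2% of all genes tested.

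Genes of the HDAC and sirtuin deacetylase families were detected for 16 of 17 listed, with a median of 25.8. Hdac7 led at 586 ± 199, before Sirt2 at 238 ± 27.1 and Sirt7 at 145 ± 10.9 (SD, n = 2). Hdac1, Hdac10 and Hdac8 were called lower in replicate 2, by log2 ratios of -1.03, -1.31 and -1.58, that is 3 of 16 tested, against 11.2% of all genes tested. Hdac9 had 0 counts in replicate 1 and 1 in replicate 2.

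The P-TEFb list holds the kinase that BET proteins help to bring to promoters, and its regulators. It had 13 of 14 genes detected, and 0 of 13 tested were called different, against 11.2% of all genes tested. Aff1 (97.6 ± 17.8) and Mllt1 (83.3 ± 3.46), of the super elongation complex, and Mepce (88.8 ± 16.6), which caps 7SK RNA, were the most abundant. Cdk9, the kinase itself, had a TPM of 85.3 in replicate 1 and 52.6 in replicate 2, and Ell3 had 0 counts in both.

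Other bromodomain proteins were detected for 27 of 27, with a median of 25.5. Smarca4, the ATPase of SWI/SNF complexes, stood at 282 ± 51.4, Brd7 at 253 ± 6.36 and the corepressor Trim28 at 237 ± 32.7 (SD, n = 2). All 3 were below Brd2 in mean TPM with all transcripts of each gene counted. Their coding models were not summed, so the 192 of the Brd2 coding models has no like value here. The Smarca4 libraries, at 246 and 319, overlapped the range of Brd2, while both libraries of Brd7 (248 and 257) and of Trim28 (261 and 214) lay below it. Atad2b and Trim24 were called higher in replicate 2, by log2 ratios of 1.02 and 1.03, that is 2 of 27 tested, against 11.2% of all genes tested.

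Transcription factors and coactivators known to bind CBP or p300 had a median TPM of 79.5, with 20 of 21 detected. Between the libraries 0 of 20 tested were called different, against 11.2% of all genes tested. Cited4 stood at 2146 ± 571, Klf1 at 1189 ± 289.9 and Gata1 at 1061 ± 268 (SD, n = 2). Klf1 and Gata1 encode erythroid factors that CBP and p300 acetylate. Reads of Gata1, here and among the erythroid markers, can come from the introduced GATA1 fusion, which these tables do not separate. Cited1 had 0 counts in replicate 1 and 1 in replicate 2.

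**Figure D5:**
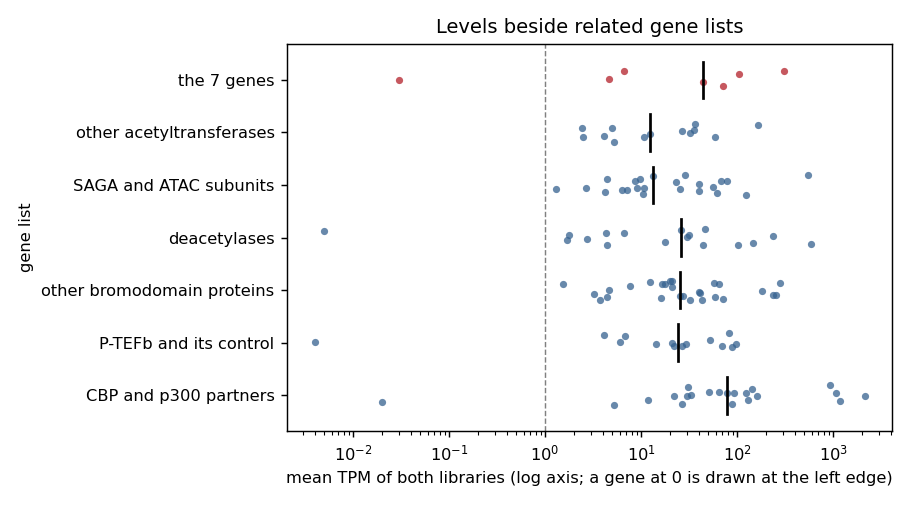
Mean TPM of both libraries (log axis) for the 7 genes, in red, and for the members of 6 related lists, in blue; each point is a gene, vertical bars are medians and the dashed line marks a TPM of 1. Brdt, at 0.0300, and 3 genes of the lists lie left of the dashed line, with Ell3, at 0, drawn at the left edge, and the partners of CBP and p300 have the highest list median, at 79.5.

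The protein-coding genes closest to each of the 6 in both libraries were found by the distance of log2(TPM + 1) over the 2 libraries, which measures a like level and like spread only. They were Mknk2 and Tsc22d4 for Brd2 (distances 0.0428 and 0.0631), mt-Nd4l and Trip12 for Brd3 (0.00657 and 0.0101), and Znrf1 and Fam216a for Kat2a (0.0131 and 0.0162). Gtpbp8 and Kdm1a were closest to Ep300 (0.0337 and 0.0469), Aacs and Trp53i13 to Crebbp (0.0272 and 0.0298), and Ggcx to Kat2b (0.00600).

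Genes that overlap the 7 on the same strand could share reads with them, and those on the opposite strand could where the counting ignored strand. The sources used here do not give the strand setting of the counting. The annotated span of H2-DMa overlaps that of Brd2 on the opposite strand over 3094 bases, and H2-DMa had 2 counts in replicate 1 and 4 in replicate 2. Mir7578 (in Brd3), Gm37186 (in Crebbp), and Gm23880 and Gm22067 (in Ep300) lie on the same strand. Gm8152 (in Brdt) and Gm6919 (in Kat2b) lie on the opposite strand. All of these had 0 counts in both libraries. No annotated gene overlapped Kat2a, and CR974462.3, antisense to Brd2, was not analysed here.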

How the data were processed

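PolyA RNA-seq of 2 libraries of 1 group was analysed. The authors deposited gene tables and transcript tables per library, derived from transcriptome alignments on mm10 with GENCODE M4, as the accompanying notes state. The aligner and quantifier are not given in the sources used here, nor is the strand setting of the counting. Per the file headers, the deposited expected counts and posterior mean counts are estimates that need not be whole, and they were not normalized. TPM as the authors gave it divides by effective length and sums to the same total in each library. The deposited FPKM entered only an alternative. The authors' percent per transcript is its share of the gene's TPM. The bounds of the authors' TPM intervals, their posterior SD of counts and the lengths were read as score columns.

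Names, types and positions came from GENCODE M21 on GRCm38, a later annotation of the mm10 assembly, and 42462 of 43346 gene rows matched without the version. All transcript models of the 7 genes matched, although the deposited lengths of Brd2-201, Brd2-205, Crebbp-201, Ep300-201 and Ep300-202 differ from those in M21. Bases said to be shared between models, or in no other model, are those of M21.

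Detection required a TPM of 1 or more in each library. Expected counts were rounded, and genes whose counts over the libraries summed to 10 or more entered an exact two-sided binomial test against TMM-scaled library sizes (edgeR 4.0.16), with Benjamini-Hochberg adjustment over all genes. DESeq2 1.42.0 size factors were an alternative. Log2 ratios between libraries carried a prior count of 0.5, and those between paralogs none. Errors are the SD over 2 libraries. The test was tried on simulated counts first. Scripts ran in R 4.3.3 and Python 3.11.15.

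The genes, lists, markers and motifs were chosen with earlier results of these data known. The rule for names took the 7 genes, their transcripts with at least 10% of the TPM in either library, and the 2 genes nearest to each detected one. It also took the 3 most abundant genes of each list, genes with 0 counts in both libraries, overlapping genes and the markers. Some genes named by this rule are not reported here. Brd2-207, Brd3-201, Brd3-203, Kat2a-203, Tada2a, Tada2b, Cdk9, Hdac9, Cited1 and the list genes called different between the libraries were named after their values were seen.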

Additional observations from a re-analysis of the deposited data

How the results depend on the processing

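Of 155 alternative values, 134 kept their direction and their call or stayed within the spread of the libraries, 20 moved and 1 changed sign. Part of the 134 could not have moved. With 2 libraries, the value of either library alone always lies within the SD of their mean. A change of the fold limit leaves each log2 ratio as it was. The tally is therefore no measure of stability. With coding transcripts only, an alternative chosen after seeing the data, mean TPM was 192 for Brd2, 96.3 for Brd3 and 28.4 for Ep300, and the log2 ratios of TPM were -2.07 for Crebbp over Ep300, 3.91 for Kat2a over Kat2b and 1.00 for Brd2 over Brd3. With expected counts, which do not divide by length, these ratios were -2.07, 3.33 and 2.00. The coding share by counts was 88.4% for Brd2, 84.9% for Ep300 and 95.4% for Kat2a, and the leading transcript held 85.7% of Brd2 and 84.9% of Ep300. With posterior means, Brdt stood at a TPM of 0.180, Kat2a over Kat2b at 3.79, and Kat2b had a coding share of 91.5% and a leading share of 88.3%. A pseudocount of 1 gave 3.69 for Kat2a over Kat2b. A fold of at least 1.5 called 3131 genes different between the libraries, against 1261 at a fold of 2. Scaling by total counts turned the log2 ratio of Crebbp between the libraries to -0.01. The cause of the other moves was not tested. Detection required both libraries, so none of the 6 detected genes could be lost with either library alone. Of these 6 genes, 5 passed a TPM of 5 in both libraries.

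No paired analysis was possible because the series has 1 group. With 2 libraries the SD is a rough guide to error. Depth limits Brdt, at 3 and 7 counts, and the shares of short or nested transcripts rest on few distinguishing bases.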
